A study of Mus musculus with 10 samples.

Results

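Antigen presentation genes were followed in mouse RPE (retinal pigment epithelium, the single layer of pigmented cells behind the photoreceptors) after gene transfer of the transcription factor Nrf2. The genes were taken by name: 7 of the MHC class I pathway (H2-K1, H2-D1, B2m, Tap1, Tapbp, Psmb8 and Psmb9) and 3 of MHC class II (H2-Aa, H2-Ab1 and Cd74). They were 10 of the 47729 genes in the count table, and all 10 were among the 16362 genes with enough counts to be tested. The samples were RPE RNA from 5 wild-type CD1 mice, an outbred stock, at postnatal day 40, each with an Nrf2 eye and a GFP control eye, and therefore 10 libraries. Both eyes of a mouse carried an adeno-associated virus (AAV) with GFP under Best1, a promoter active in the RPE. The Nrf2 eye also received a vector with the human Nrf2 sequence under the same promoter, so that it was given more virus than the control eye. No control vector made up that amount, and the effect of the added vector cannot be told apart from that of Nrf2. After removal of the retina, each eyecup was put in RNA Protect, and RPE RNA was purified from the supernatant. This RNA was amplified with a kit made for small amounts.

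MHC class I molecules stand on most nucleated cells and show peptides from inside the cell to CD8+ T cells. Each consists of a heavy chain, such as those encoded by H2-K1 and H2-D1, with the small subunit B2m and a peptide. Psmb8 and Psmb9 are catalytic subunits of the immunoproteasome, which cuts proteins into peptides, Tap1 is 1 chain of the transporter that carries peptides into the endoplasmic reticulum, and Tapbp (tapasin) holds the empty class I molecule at that transporter. MHC class II molecules show peptides from outside the cell to CD4+ T cells and are at home on macrophages, dendritic cells and B cells. H2-Aa and H2-Ab1 encode the alpha and beta chains of the I-A molecule, and Cd74 is the invariant chain that fills its groove until a peptide is loaded. Interferon gamma is a known inducer of both pathways. The RPE is part of the outer barrier of an eye region that is held to be immune privileged.

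Library totals ran from 12298404 to 27310638 counts, and the members had between 95 (H2-Aa) and 34684 (H2-D1) counts in a library. All levels below are CPM, counts scaled to the library total. Nfe2l2, the mouse gene for Nrf2, rose from a mean of 88.7 to 352.9 CPM (log2 fold change 1.97, adjusted p = 0.000299, edgeR's quasi-likelihood test with Benjamini-Hochberg adjustment), and reads of the human transgene that were counted to it cannot be told apart from its own. The 8 RPE markers summed to between 19496 and 40807 CPM in control eyes and between 9443 and 26382 CPM in Nrf2 eyes. Of these, 4 of 8 were called lower by edgeR's test, Rpe65 (log2 fold change -2.88), Rgr (-2.87), Lrat (-2.26) and Rlbp1 (-1.93), while Ttr, the largest part of the sum in Nrf2 eyes, averaged 11543 and 11751 CPM (0.00). The vector's promoter gene Best1 was at only 0.119 to 1.50 CPM. Rod RNA was uneven, at 17922 and 6974 CPM in the control and Nrf2 eye of mouse 2 against 152 to 2802 CPM elsewhere. In bulk RNA, fewer cells of a type and less RNA per cell cannot be told apart.

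H2-K1 rose in Nrf2 eyes, and it was the only member past the threshold. Of the 10 members, 1 was called higher and 0 lower at an adjusted p under 0.05 by edgeR's quasi-likelihood test with the mouse as a block, where 3.6% of all tested genes were called higher and 2.73% lower. At an unadjusted p under 0.05 in that test, 6 of 10 members were higher and 0 lower, against 9.58% of all tested genes higher. DESeq2 with the same block called 6 members higher and 0 lower, against 5.42% of its tested genes called higher and 9.25% in either direction. The log2 fold change was above 0 for all 10 members (that of Psmb9 fell below 0 without mouse 4 and with rod RNA as a covariate), with a median of 0.40 over the 7 class I members and 1.40 over the 3 class II members, beside -0.01 over all tested genes. After scaling for library composition, 7 of 10 members were higher in the Nrf2 eye of every mouse, against 9.23% of tested genes. On plain CPM it was 6 of 10, because H2-D1 in mouse 3 was level between the eyes. The control and Nrf2 groups overlapped for all 10 members, while 3.87% of tested genes had groups that did not overlap with Nrf2 higher and 2.41% with Nrf2 lower.

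**Figure D1:**
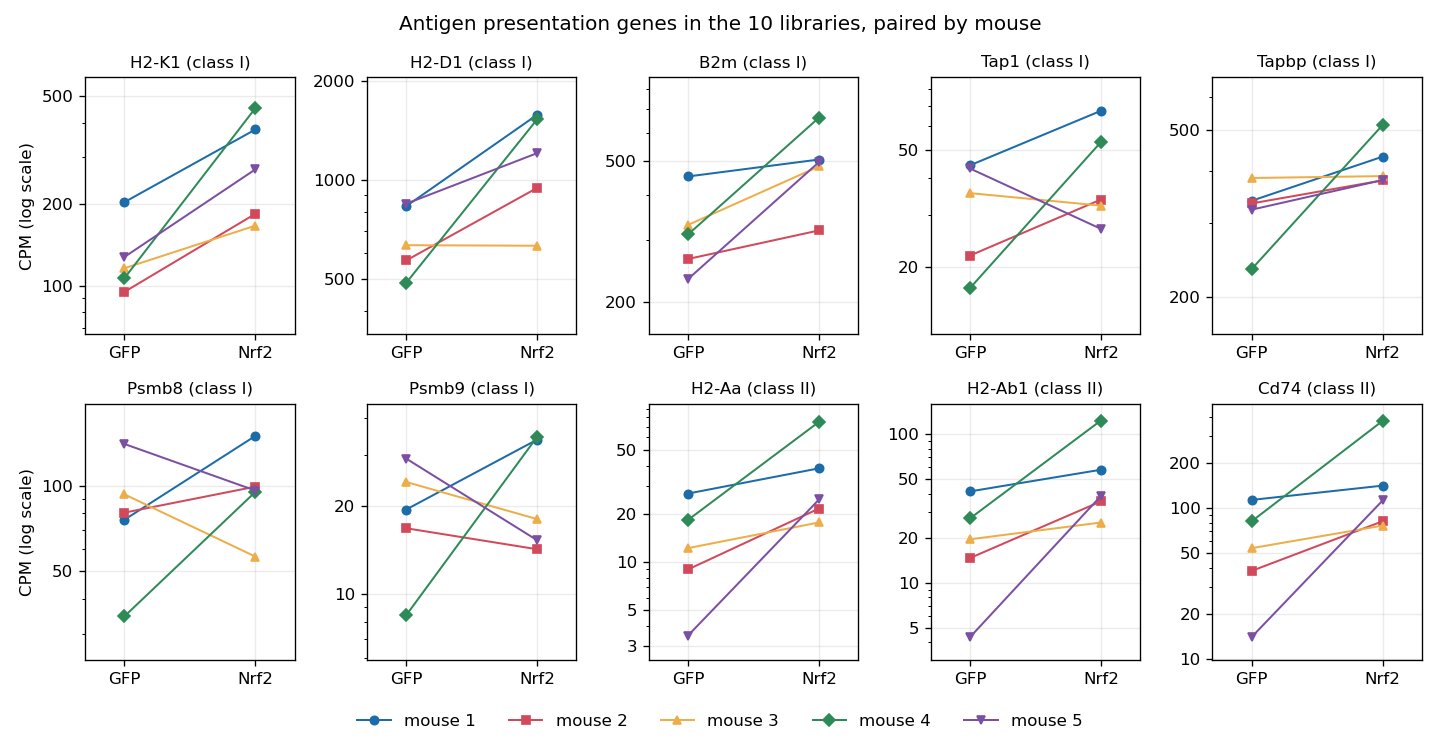
Level of each of the 10 antigen presentation genes in CPM (log axis, 1 panel per gene) in the GFP control and Nrf2 eyes, with a line joining the eyes of each of the 5 mice. The 3 class II genes, H2-K1, B2m and Tapbp had upward lines in all 5 mice, whereas the lines of Tap1, Psmb8 and Psmb9 crossed. The groups overlapped in every panel.

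Among the class I heavy chains, H2-K1 (ENSMUSG00000061232, chromosome 17, 33996017 to 34000347, minus strand, mm10) was at 203.7, 95.1, 116.3, 106.8 and 127.9 CPM in the control eyes of mice 1 to 5. In their Nrf2 eyes it was at 377.5, 184.5, 166.9, 452.7 and 269.2 CPM. The Nrf2 eye was higher in every mouse, although the control eye of mouse 1 lay above the Nrf2 eyes of mice 2 and 3. Its mean over 5 mice went from 129.98 ± 42.95 CPM in the control group to 290.2 ± 123.3 CPM in the Nrf2 group (± SD throughout). This was a log2 fold change of 1.08 with a standard error (SE) of 0.25 (adjusted p = 0.0224, edgeR's quasi-likelihood test). The call was lost without mouse 1 (adjusted p = 0.055), without mouse 2 (0.0775) and without mouse 5 (0.0644) in the same edgeR test. It was also lost without the mouse as a block (adjusted p = 0.061, edgeR). The class I heavy chain family summed over 8 genes did not pass (log2 fold change 0.85, adjusted p = 0.0886, edgeR).

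H2-D1 (ENSMUSG00000073411, chromosome 17, 35262730 to 35267499, plus strand) encodes the other classical heavy chain in this set. Its control values were 834.3, 571.2, 635.3, 488.4 and 848.9 CPM. Its Nrf2 values were 1579.5, 947.8, 633.0, 1530.9 and 1208.3 CPM. The Nrf2 eye was clearly the higher in mice 1, 2, 4 and 5, and the eyes of mouse 3 were level. The means were 675.6 ± 160.3 and 1179.9 ± 399.0 CPM (n = 5 each). The log2 fold change was 0.74 (SE 0.27), which did not pass the threshold (adjusted p = 0.117, edgeR). Of the 50-base windows of their transcripts, 9.63% of those of H2-K1 and 12.8% of those of H2-D1 also occurred in another gene, mostly in heavy chains of the same family, so reads there may have been counted to either gene or to none.

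B2m (ENSMUSG00000060802, chromosome 2, 122147686 to 122153083, plus strand), the shared light chain, was at 451.9, 264.4, 329.8, 310.0 and 232.1 CPM in control eyes. It was at 504.5, 318.3, 482.4, 662.4 and 496.3 CPM in Nrf2 eyes. The Nrf2 eye was the higher in all 5 mice, with small gaps in mice 1 and 2 and the widest in mice 4 and 5. Its log2 fold change was 0.62 (SE 0.17), from 317.6 ± 84.2 to 492.8 ± 122.0 CPM (n = 5 each), and missed the threshold in edgeR's test (adjusted p = 0.0698). DESeq2 gave 0.63 with an adjusted p of 0.00527.

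The sequences before the H2-K1 and B2m genes are shown because they hold, in a short space, letters of the kinds of element by which class I genes are known to be switched on. Capitals mark the matches to 5 motifs on either strand in the 250 bases before the RefSeq start, which can differ from the GENCODE gene ends given with each gene. The last of these bases is left out for B2m, because the GENCODE gene begins there, and 249 are shown. TTTCNNTT is the core of an interferon-response element, and a kappaB-type site was searched as 3 G and an A, any 4 letters, and a pair of C. The Y-box of MHC promoters, which the factor NF-Y binds, was searched by its core ATTGG. TGACNNNGC is the core of the antioxidant response element, which Nrf2 binds. The remaining motif, part of the cAMP-response element, was TGACG. They are from RefSeq (GRCm38.p6) and read 5′ to 3′ on the gene's strand, at chr17:34000348-34000597 for H2-K1 and chr2:122147437-122147685 for B2m.
H2-K1: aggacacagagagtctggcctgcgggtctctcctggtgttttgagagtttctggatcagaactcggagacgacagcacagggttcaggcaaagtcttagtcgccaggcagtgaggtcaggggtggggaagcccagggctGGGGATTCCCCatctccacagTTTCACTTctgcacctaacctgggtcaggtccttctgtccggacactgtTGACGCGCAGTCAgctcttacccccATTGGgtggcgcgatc
B2m: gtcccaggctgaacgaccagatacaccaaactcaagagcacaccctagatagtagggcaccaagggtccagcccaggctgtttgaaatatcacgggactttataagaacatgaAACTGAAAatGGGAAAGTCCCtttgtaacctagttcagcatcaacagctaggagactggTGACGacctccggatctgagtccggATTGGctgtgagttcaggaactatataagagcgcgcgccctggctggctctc

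All 8 members with an entry in the promoter table were searched, and H2-Ab1 and Cd74 had none. The motifs were chosen with sequences in view, so the shares that follow are a description and no test of enrichment. TTTCNNTT was found in 4 of these 8 and in 21.6% of 27025 promoters of the same length, and the kappaB-type site in 4 of 8 and in 17.3%. The shares were 7 of 8 and 34.5% for ATTGG, and 6 of 8 and 17.9% for TGACG. The windows of Tap1 and Psmb9 share the 225 bases between their starts, so 1 match there can count for both genes. The 8 promoters are therefore not 8 separate sequences. TGACNNNGC was in 1 of 8, H2-K1, and in 2743 of the 27025 promoters, where it overlaps the TGACG match by 1 base on the other strand. H2-K1, H2-D1, B2m and H2-Aa held both of the first pair of motifs, and Tap1, Tapbp, Psmb8 and Psmb9 held neither in this window. The promoters of H2-K1 and H2-D1 were the same at 166 of 190 bases compared without gaps, 87.4%, which includes a stretch of 30 bases with 29 in common, at chr17:34000429-34000458 and chr17:35262923-35262952. The stretch of H2-D1 lies before its RefSeq start but within the span of the gene in GENCODE M21, which begins at 35262730. In it the capitals mark the kappaB-type and interferon-response matches.
H2-K1: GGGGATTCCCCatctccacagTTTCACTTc
H2-D1: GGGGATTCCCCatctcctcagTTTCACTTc
These matches describe letters only, and binding of any factor was not measured.

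The genes that supply and load peptides on class I molecules had smaller fold changes than the heavy chains, and none of the 4 passed the threshold in edgeR's test or in DESeq2. Tapbp (ENSMUSG00000024308, chromosome 17, 33915899 to 33929292, plus strand) was at 338.7, 333.8, 383.9, 232.8 and 322.6 CPM in control eyes and at 431.7, 378.9, 387.9, 513.8 and 379.6 CPM in Nrf2 eyes. It was higher in all 5 mice after scaling, but by 0.03 to 0.17 on the log2 scale in mice 2, 3 and 5. Its log2 fold change came to 0.37 (SE 0.19, adjusted p = 0.29, edgeR), from a mean of 322.4 ± 55.2 to one of 418.4 ± 57.6 CPM (n = 5 each), and was 0.19 with rod RNA as a covariate and 0.22 without mouse 4. Its exons share 904 bases (24.9%) with Gm19412 on the other strand, which averaged 0.583 CPM, and 149 bases with Zbtb22 on the same strand.

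Tap1 (ENSMUSG00000037321, chromosome 17, 34187553 to 34197225, plus strand) was at 44.2, 21.9, 35.6, 16.96 and 43.2 CPM in control eyes and 67.7, 33.9, 32.3, 53.0 and 26.95 CPM in Nrf2 eyes. The Nrf2 eye was higher in mice 1, 2 and 4 and lower in mice 3 and 5. The fitted log2 difference was 0.40 with an SE of 0.40 (adjusted p = 0.599, edgeR), 0.14 without mouse 4 and 0.69 without mouse 5. The neighbour Psmb9 (ENSMUSG00000096727, chromosome 17, 34181987 to 34187764, minus strand) is read in the opposite direction. The RefSeq starts of both genes (34187556 for Tap1 and 34187330 for Psmb9) have 225 bases between them, whereas their GENCODE spans overlap. It was at 19.4, 16.8, 24.2, 8.42 and 29.1 CPM in control eyes and at 33.8, 14.2, 18.01, 34.6 and 15.2 CPM in Nrf2 eyes, and was higher in mice 1 and 4 alone. It differed by 0.20 on the log2 scale with an SE of 0.53 (adjusted p = 0.873, edgeR), and by -0.17 without mouse 4. Exons of Tap1 and Psmb9 overlap on opposite strands over 212 bases, 3.87% of the Tap1 exons and 5.79% of those of Psmb9. Whether the counting used strand is not given in the sources used here, so reads there and in the other overlaps named here are uncertain.

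Psmb8 (ENSMUSG00000024338, chromosome 17, 34197721 to 34201454, plus strand) was at 76.0, 80.5, 93.4, 34.7 and 140.6 CPM in control eyes. It was at 150.1, 99.4, 56.4, 95.3 and 96.3 CPM in Nrf2 eyes. The Nrf2 eye was higher in mice 1, 2 and 4 and lower in mice 3 and 5, which is the division seen for Tap1. On the log2 scale the fold change was 0.27 (SE 0.43, adjusted p = 0.766, edgeR), and it was 0.03 without mouse 4, 0.10 without mouse 1, 0.51 without mouse 5 and 0.59 without mouse 3. Its exons share 498 bases (14.7%) with Gm20496 on the other strand, which averaged 0.0861 CPM. The control eye of mouse 4 had the lowest level of Tapbp, Tap1, Psmb8 and Psmb9 among the 10 libraries.

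The transcription factor Irf1, a known activator of class I and immunoproteasome genes, had much the same values by mouse as Psmb8. Its CPM was 98.4, 124.5, 111.7, 45.7 and 185.3 in control eyes and 220.5, 145.5, 77.1, 103.1 and 102.0 in Nrf2 eyes. The 5 within-mouse differences of Irf1 and Psmb8 lay 0.227 apart (root mean square on the log2 scale), the 7th smallest distance to Psmb8 among tested genes. The distance was 0.821 for Psmb5, a constitutive proteasome subunit. Irf1 was looked at after its values were known, and likeness over 5 mice is a description. Averaged over genes within each mouse, the difference of the 4 peptide-supply genes was 0.76, 0.20, -0.30, 1.50 and -0.57 in mice 1 to 5. That of H2-K1, H2-D1 and B2m was 0.73, 0.64, 0.37, 1.54 and 0.80, above 0 in all 5 mice. Their means were 0.32 (SE 0.37) and 0.82 (SE 0.20), and without mouse 4 the first was 0.02 and the second 0.64.

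**Figure D2:**
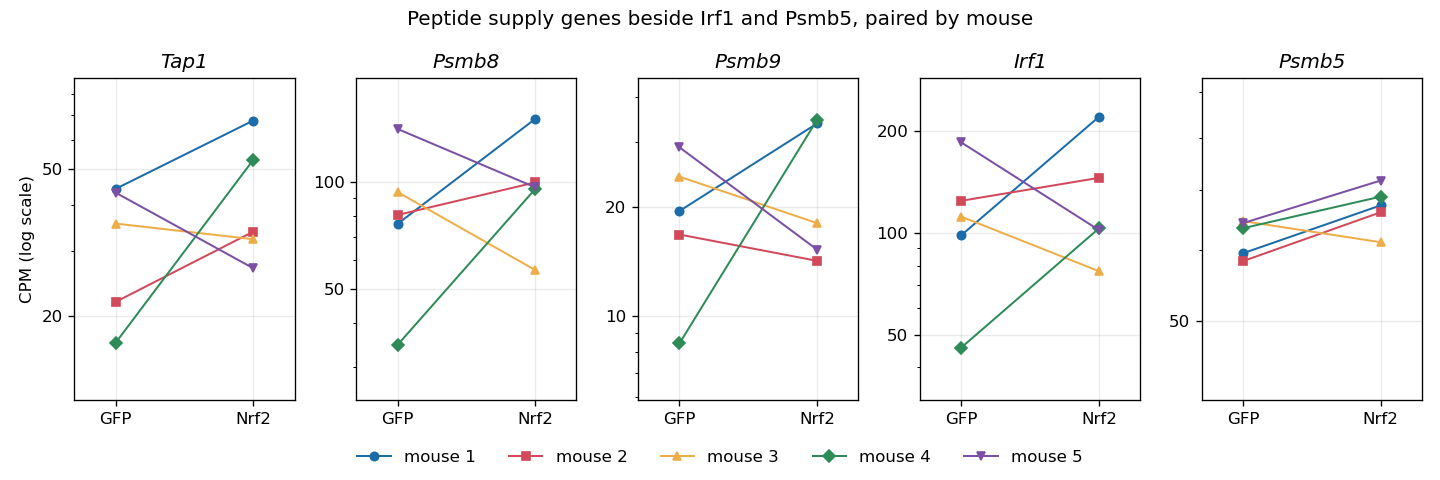
Level in CPM (log axis, 1 panel per gene) of 3 class I peptide-supply genes, of the transcription factor Irf1 and of the constitutive proteasome subunit Psmb5 in GFP control and Nrf2 eyes, with a line for each of the 5 mice. For Tap1, Psmb8 and Irf1 the lines ran upward in mice 1, 2 and 4 and downward in mice 3 and 5, and Psmb5 stayed between 58.3 and 71.7 CPM in all 10 libraries.

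The 3 class II members had the largest fold changes of the set with all 5 mice, although without mouse 5 that of H2-K1 (1.11) was above those of H2-Aa (1.09), H2-Ab1 (1.08) and Cd74 (1.02). They were higher in the Nrf2 eye of every mouse, and none of them passed the threshold in edgeR's test. H2-Aa (ENSMUSG00000036594, chromosome 17, 34282744 to 34287823, minus strand) was at 26.8, 8.995, 12.2, 18.3 and 3.48 CPM in the control eyes of mice 1 to 5. In the Nrf2 eyes it was at 38.5, 21.6, 17.7, 75.1 and 24.6 CPM. The control eye of mouse 5 was the lowest of the 10 libraries and the Nrf2 eye of mouse 4 the highest. The control eye of mouse 1 lay above the Nrf2 eyes of mice 2, 3 and 5. The means were 13.96 ± 8.96 and 35.5 ± 23.5 CPM (n = 5 each). The log2 fold change was 1.40 (SE 0.41), with an adjusted p of 0.0559 in edgeR's quasi-likelihood test and of 0.000293 in DESeq2.

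The beta chain gene H2-Ab1 (ENSMUSG00000073421, chromosome 17, 34257689 to 34269419, plus strand) was at 41.3, 14.7, 19.7, 27.2 and 4.32 CPM in control eyes. It was at 57.8, 35.4, 25.5, 123.8 and 38.5 CPM in Nrf2 eyes. The same libraries as for H2-Aa were lowest and highest. The log2 fold change was 1.45 (SE 0.50, adjusted p = 0.0875, edgeR), from 21.4 ± 13.9 to 56.2 ± 39.5 CPM (n = 5 each).

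Cd74 (ENSMUSG00000024610, chromosome 18, 60803848 to 60812652, plus strand) lies on another chromosome than the other class II members and had the same order of libraries at both ends. Its control values were 113.1, 38.3, 54.2, 81.6 and 13.99 CPM, and its Nrf2 values were 140.6, 81.7, 76.5, 377.9 and 112.2 CPM. The log2 fold change was 1.39 (SE 0.49, adjusted p = 0.0938, edgeR), from 60.2 ± 38.4 to 157.8 ± 125.7 CPM (n = 5 each).

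The 3 class II genes kept nearly fixed proportions to each other while their levels varied. The log2 ratio of Cd74 to H2-Aa was 2.08 ± 0.07 (SD, n = 5) in control eyes and 2.08 ± 0.19 in Nrf2 eyes, and lay between 1.87 and 2.33 in the 10 libraries. That of H2-Ab1 to H2-Aa lay between 0.30 and 0.72, with the low end in the control eye of mouse 5, where H2-Aa had 95 counts. Over the same libraries the summed CPM of the 3 genes ranged from 21.8 to 577.

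The promoter of H2-Aa is shown beside those of the class I genes because the alpha chain gene held matches to 4 of the 5 motifs. It lies at chr17:34287824-34288073 (RefSeq, GRCm38.p6, minus strand), and capitals have the same meaning as above. TGACG was matched on both strands at a single palindromic place.
H2-Aa: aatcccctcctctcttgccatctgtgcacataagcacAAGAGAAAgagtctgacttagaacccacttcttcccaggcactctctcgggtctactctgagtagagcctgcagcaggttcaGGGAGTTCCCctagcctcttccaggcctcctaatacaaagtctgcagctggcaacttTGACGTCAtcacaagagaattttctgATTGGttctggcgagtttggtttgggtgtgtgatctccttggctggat

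The gap between class II and class I differed between mice. The mean within-mouse difference of the 3 class II genes was 0.51, 1.19, 0.48, 2.07 and 2.88 on the log2 scale in mice 1 to 5, with a mean of 1.43 (SE 0.46). That of the 7 class I pathway genes was 0.75, 0.39, -0.01, 1.52 and 0.02, with a mean of 0.53 (SE 0.28). Class II exceeded class I in 4 of 5 mice, by 0.80, 0.50, 0.56 and 2.86 in mice 2 to 5, and was 0.23 under it in mouse 1 (-0.23). The mean of these gaps was 0.90 (SD 1.16, SE 0.52), and it was 0.40 without mouse 5. No p-value is given for these averages, since the genes were chosen with results known. In mouse 5 the class I genes were split, with H2-K1 at 0.98 and B2m at 1.01 but Psmb9 at -1.02 and Tap1 at -0.77. Mouse 4 alone had differences above 1 on the log2 scale for all 10 members.

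**Figure D3:**
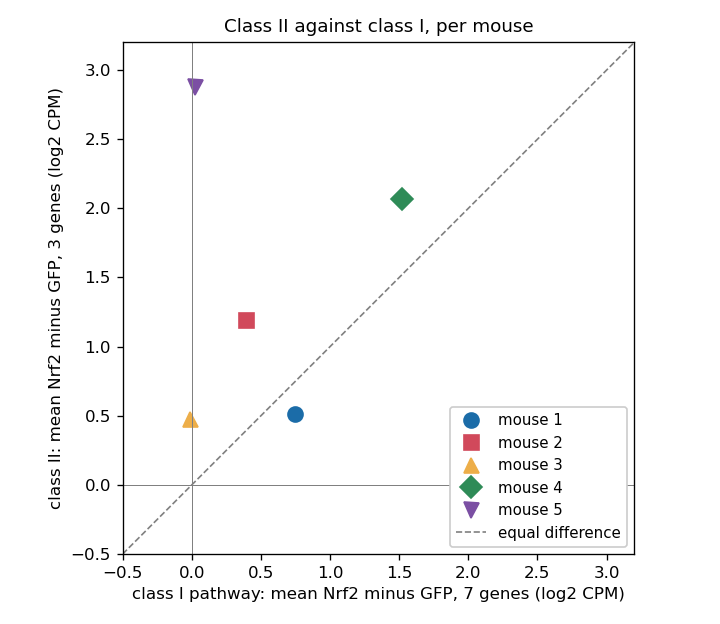
Mean within-mouse difference (Nrf2 minus GFP control eye, log2 CPM) of the 3 class II genes on the vertical axis against that of the 7 class I pathway genes on the horizontal axis, with 1 point for each of the 5 mice and a dashed line where both would be equal. Mice 2 to 5 lie above the line and mouse 1 below it, with mouse 5 the farthest from it at 0.02 for class I and 2.88 for class II.

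The summed class II level ranged more widely between mice than that of class I in both groups. Summed class II RNA varied 8.32-fold among the 5 control eyes (21.8 to 181.2 CPM) and 4.82-fold among the 5 Nrf2 eyes (119.7 to 576.7 CPM). Without the control eye of mouse 5 the class II range was 2.92-fold, and without the Nrf2 eye of mouse 4 it was 1.98-fold, so that 1 eye, left out after the values were seen, set most of each range. Summed class I RNA varied 1.64-fold (1198 to 1968 CPM) and 1.88-fold (1777 to 3343 CPM), and 1.77-fold without the Nrf2 eye of mouse 4. The SD of log2 CPM between control eyes was 1.10, 1.21 and 1.15 for H2-Aa, H2-Ab1 and Cd74, and from 0.28 (Tapbp) to 0.75 (Psmb8) for the class I members. In Nrf2 eyes it was 0.81, 0.85 and 0.91 for the class II genes and from 0.19 (Tapbp) to 0.64 (Psmb9) for the others.

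The within-mouse differences of the 10 members had SDs from 0.39 (B2m) to 1.18 (Psmb9), where the median over all tested genes was 0.41. B2m and Tapbp lay near that median, with 48.0% and 51.8% of tested genes less variable. H2-K1 (0.55) and H2-D1 (0.59) were more variable than 64.3% and 67.3% of tested genes. The share was 84.2% to 89.7% for the class II genes and 82.7% to 91.1% for Tap1, Psmb8 and Psmb9. Mice 4 and 5 were the highest for class II, while mouse 5 had the lowest difference for Tap1 and Psmb9.

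**Figure D4:**
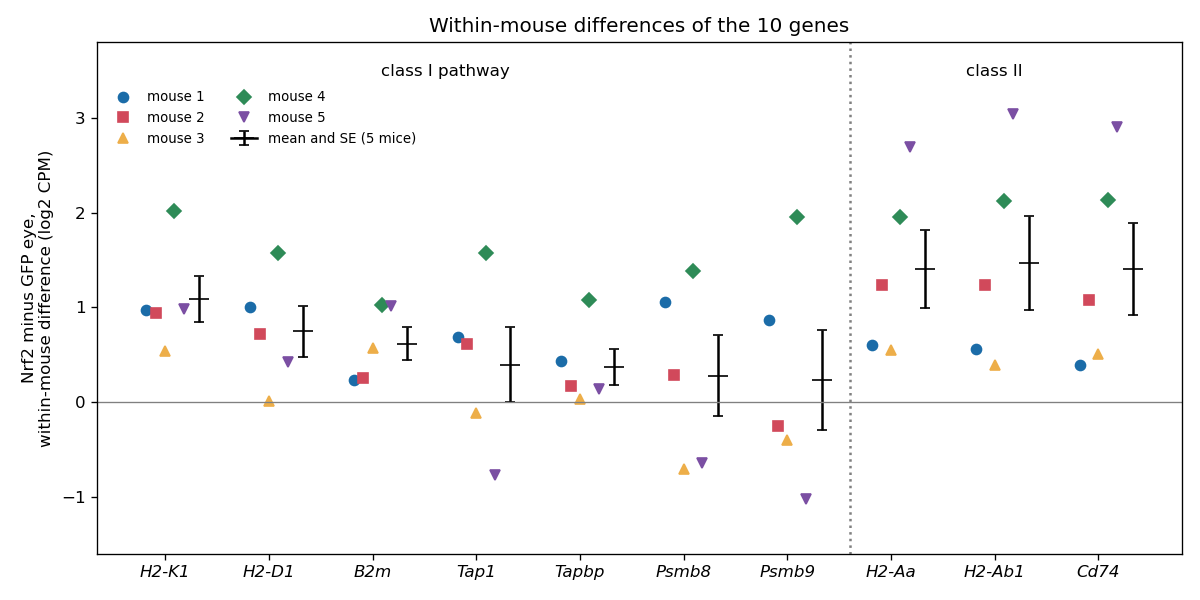
Difference between the Nrf2 and GFP control eye of each of the 5 mice (log2 CPM, colored symbols) for the 7 class I pathway genes and the 3 class II genes, with the mean and its SE in black. The class II symbols spread from 0.39 to 3.04 and all lie above 0, whereas Tap1, Psmb8 and Psmb9 spread from -1.02 to 1.96 on both sides of 0.

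Per length, the members covered a wide range of levels. B2m led with a mean of 369 CPM per kilobase of exon in control eyes and 573 in Nrf2 eyes, and H2-D1 came next at 262 and 458. Tapbp (88.9 and 115), H2-K1 (44.2 and 98.8), Cd74 (35.9 and 94.0) and Psmb8 (25.2 and 29.4) formed the middle of the order. The lowest levels per kilobase were those of H2-Ab1 (8.35 and 21.9), Tap1 (5.91 and 7.81), Psmb9 (5.35 and 6.33) and H2-Aa (3.68 and 9.34). In control eyes, neighbors in this order differed by more than the larger of their SDs from B2m down to H2-K1 and between Psmb8 and H2-Ab1, and by less in the other pairs. In Nrf2 eyes, H2-D1 and Tapbp were the only neighbors that differed by more. Exon length counts all annotated exons of a gene, so these levels understate genes with long rarely used exons.

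Of 64 other pathway genes tested, 5 were called higher and 0 lower by edgeR's test, where 6.33% of all tested genes were called in either direction. The lists of these genes were written with earlier results of the data known. Among the other class I heavy chains, 1 of 14 tested was called, Cd1d1, which presents lipids to natural killer T cells. It rose from 1.52 ± 0.56 to 5.66 ± 1.36 CPM (n = 5 each), by 1.91 on the log2 scale, with an SE of 0.27 (adjusted p = 0.0128, edgeR). That call was lost without mouse 2 and with a rod covariate, with an adjusted p of at most 0.0665 in edgeR. The median log2 fold change of this list was 0.81, with 13 of 14 above 0, and H2-M9 and H2-M10.1 had no count in any library. H2-T23, a nonclassical heavy chain, was at 48.1 and 85.6 CPM in the control and Nrf2 eye of mouse 1 and between 7.88 and 26.9 CPM in the other 8 libraries. Mr1, which presents microbial metabolites, was the most abundant of the list at 83.5 ± 16.4 and 72.6 ± 19.1 CPM and had a log2 fold change of -0.23 with an SE of 0.16 (adjusted p = 0.47, edgeR).

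None of 10 other class I peptide supply and loading genes was called by edgeR (0 of 10 also at an unadjusted p under 0.05), and their median log2 fold change was 0.24. Tap2, the partner chain of Tap1, had a value of 0.23 (SE 0.30) and Psmb10, the remaining immunoproteasome subunit, one of 0.27 (SE 0.19). The most abundant genes of this list were the chaperones Hspa5 (log2 fold change 0.10) and Calr (0.18). The constitutive counterparts of the immunoproteasome subunits, Psmb5, Psmb6 and Psmb7, had log2 fold changes of 0.10, -0.07 and -0.22, with 0 of 3 called by edgeR and 1 of 3, Psmb7, at an unadjusted p under 0.05.

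Among 9 other class II genes, 2 were called higher, Ctss and Lgmn. Ctss, the protease that trims the invariant chain, was at 17.5, 12.9, 10.8, 9.91 and 13.5 CPM in control eyes and at 229, 92.6, 139, 257 and 435 CPM in Nrf2 eyes. All Nrf2 eyes lay above all control eyes, and the log2 fold change was 3.98 (SE 0.37, adjusted p = 0.000979, edgeR). Lgmn, another protease of that compartment, rose from 108.4 ± 15.3 to 164.1 ± 13.8 CPM (log2 fold change 0.59, SE 0.11, adjusted p = 0.0229, edgeR), a call lost without mouse 1, 3, 4 or 5 and with the rod covariate (adjusted p at most 0.0768). The median of the list was 0.34. Ctsl, a further lysosomal protease and the most abundant gene of the list, had a log2 fold change of 0.16 with an SE of 0.16 (adjusted p = 0.693, edgeR). H2-Eb1, the beta chain of the I-E molecule, was at 3.70 and 4.96 CPM in the control eyes of mice 2 and 3 and at 7.73 and 6.69 CPM in their Nrf2 eyes. It was at 1.95 CPM or less in both eyes of the other 3 mice, so its level differed more between mice than between the eyes of a mouse.

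Of 13 regulators of MHC transcription, Irf8, a factor of the macrophage and dendritic lineages, was called. It rose from 5.05 ± 1.35 to 22.2 ± 14.8 CPM (n = 5 each), by 1.90 on the log2 scale, with an SE of 0.35 (adjusted p = 0.0121, edgeR). The master regulators themselves were low. Ciita, the class II transactivator, was at 5.37 CPM in the Nrf2 eye of mouse 4 and at 1.40 CPM or less in all other libraries (log2 fold change 1.50, SE 0.64, adjusted p = 0.338, edgeR). Nlrc5, its class I counterpart, was at 0.538 to 2.91 CPM in control eyes and 1.64 to 5.04 CPM in Nrf2 eyes (1.14, SE 0.51, adjusted p = 0.252). Cd86, a ligand that co-stimulates T cells, rose from 0.793 ± 0.310 to 5.55 ± 3.16 CPM (log2 fold change 2.67, SE 0.47, adjusted p = 0.0161, edgeR) and was the only gene called of 4 co-stimulators tested. The calls of Irf8 and Cd86 were lost without mouse 4 and with the rod covariate, with an adjusted p of at most 0.0686 and 0.0842 in edgeR.

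Of 11 tested genes of interferon gamma signaling and its targets, 0 were called by edgeR (1 of 11 at an unadjusted p under 0.05), with a median log2 fold change of 0.27 and a lowest value of 0.00 (Gbp3). The most abundant, Jak1 and Ifngr2, had values of 0.12 and 0.31. The Nrf2 eye of mouse 4 stood apart on this list, with a sum of 1552 CPM against 428 to 662 CPM in the other Nrf2 eyes and 324 to 542 CPM in control eyes. In that library Cxcl9, an interferon-induced chemokine that attracts T cells, was at 82.9 CPM and Cxcl10 at 96.5 CPM, against at most 0.816 and 7.04 CPM elsewhere. Ifng itself was at 2.20 CPM (27 counts), and at most 0.179 CPM elsewhere. Igtp, a GTPase induced by interferon gamma, was at 383 CPM there, at 29.6 to 49.3 CPM in the other Nrf2 eyes and at 6.85 to 21.5 CPM in control eyes. These genes were singled out after their values were seen. The T and NK cell markers summed to 28.7 CPM in that eye against 1.94 to 6.79 CPM elsewhere, with Cd8a at 4.80 and Nkg7 at 7.48 CPM. Their part in the class I and class II levels of mouse 4 was not tested. Without mouse 4 the class II mean was 1.27, the class I mean 0.29 and the log2 fold change of H2-K1 0.89 (adjusted p = 0.0234, edgeR).

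Most macrophage and microglia markers were higher in Nrf2 eyes. Of 15 tested markers, 12 were called higher and 0 lower, and the median of their log2 fold changes was 4.20. Their sum was 167 to 300 CPM in control eyes and 409 to 2048 CPM in Nrf2 eyes. Csf1r made up most of the control sum and had a value in the opposite direction, at 135 to 246 CPM in control eyes and 61.0 to 222 CPM in Nrf2 eyes (log2 fold change -0.57, SE 0.33, adjusted p = 0.301, edgeR), lower in the Nrf2 eye of 4 of 5 mice. Without it the other 14 summed to 69.3, 43.9, 36.7, 53.2 and 31.6 CPM in the control eyes of mice 1 to 5, and to 822, 348, 598, 1064 and 1826 CPM in their Nrf2 eyes. Mice 4 and 5 were the highest in the Nrf2 eyes, and mouse 5 the lowest in the control eyes, where class II was also lowest. Among the Nrf2 eyes, mouse 5 had the highest marker sum, but its summed class II level (175.3 CPM) lay below those of mouse 4 (576.7 CPM) and mouse 1 (236.9 CPM). By within-mouse difference, mouse 5 was the highest for both class II (2.88) and C1qa (7.07, against 3.56 to 4.80 in the other mice), while its mean class I difference was 0.02. C1qa, a complement gene of macrophages and microglia, was at 2.16 CPM in that control eye and at 322 CPM in the Nrf2 eye of the same mouse. The part of these cells in the member genes' values was not tested.

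Markers of dendritic and B cells, which also carry class II, had lower sums than those of macrophages and microglia. Their part in the class II levels was not tested. The 8 dendritic cell markers summed to 2.89 to 8.26 CPM in control eyes and 9.63 to 25.3 CPM in Nrf2 eyes, with 0 of 3 tested called by edgeR. Itgax, which macrophages can also express, made up most of that gap, at 0.585 and 7.31 CPM on average with groups that did not overlap (log2 fold change 3.38, adjusted p = 0.0938, edgeR). The 5 B cell markers were at 0.768 to 1.73 and 0.715 to 1.83 CPM in sum. The endothelial markers (21.997 to 115 and 55.1 to 117 CPM) and the fibroblast markers (125 to 677 and 135 to 774 CPM) had medians of 0.15 and 0.17 on the log2 scale and no call. The Mueller glia list, which shares Rlbp1 with the RPE list, had 1 of 6 markers called lower. No marker of any of these lists was at 0 in all libraries.

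**Figure D5:**
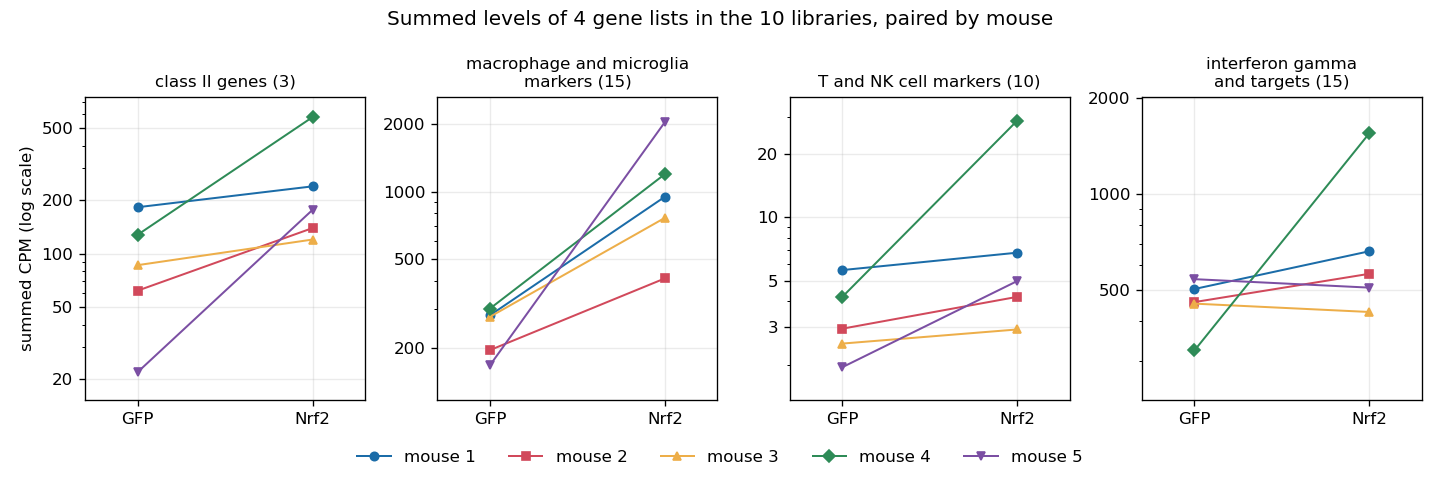
Summed CPM (log axis) of the 3 class II genes, of 15 macrophage and microglia markers, of 10 T and NK cell markers and of 15 interferon gamma genes and targets in GFP control and Nrf2 eyes, with a line for each of the 5 mice. The class II and macrophage sums were higher in the Nrf2 eye of every mouse, at 21.8 and 175 CPM and at 167 and 2048 CPM in the eyes of mouse 5, while the T and NK cell and interferon sums of the Nrf2 eye of mouse 4 lay above all other libraries.

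By their 5 within-mouse differences, the genes most like H2-Ab1 other than members were Pde3b, Atf3, Mx2, Ikzf1 and Jsrp1, at root mean square distances of 0.274, 0.283, 0.301, 0.321 and 0.384 on the log2 scale. The members Cd74 (0.134) and H2-Aa (0.182) lay nearer, and the closest class I member was H2-K1 at 0.949. Pde3b differed by 0.69, 1.27, 0.52, 1.80 and 3.53 in mice 1 to 5, and H2-Ab1 by 0.56, 1.24, 0.39, 2.12 and 3.04. Jsrp1, Ikzf1 and Mx2 averaged 0.796, 1.32 and 2.26 CPM, so their differences rest on few counts.

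The genes most like B2m were Grn, Retreg1, Hexa, Spata6 and Tgfbr2, at distances of 0.107, 0.111, 0.135, 0.149 and 0.152. Grn and Hexa encode lysosomal proteins, and Tgfbr2 is a receptor for TGF-beta. B2m differed by 0.23, 0.25, 0.57, 1.03 and 1.01 in mice 1 to 5, and Grn by 0.15, 0.23, 0.71, 1.15 and 0.88. The nearest member was Tapbp at 0.463, followed by H2-D1 at 0.592 and H2-K1 at 0.629, so that B2m and the heavy chains it pairs with had less alike patterns over the mice than the chains of class II had. These distances are over 5 mice and carry no test.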

How the data were processed

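Per the labels and the study's methods, reads were aligned with STAR to mm10 and counted per gene with featureCounts, with parallel estimates by Salmon (0.8.2 in the submitters' processing notes). The authors deposited raw whole-number counts per Ensembl gene. Which table this was, the strand setting and filters are not given in the sources used here. The table held 47729 genes in 10 libraries, with 0 columns of other samples. Symbols and positions came from GENCODE M21. MHC genes are polymorphic, and reads of alleles unlike the reference may have been lost in these outbred mice, which was not tested.

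The test was that of edgeR 4.0.16 under R 4.3.3 on these counts (filterByExpr, TMM, quasi-likelihood F test, mouse as a block, Benjamini-Hochberg adjustment over 16362 genes, threshold 0.05). DESeq2 1.42.0 was an alternative. SE is the SD of the 5 within-mouse log2 CPM differences (prior count 2) over the square root of 5. Labels pair the eyes by animal, and deviations from group means correlated across genes by 0.19 to 0.71 within mice (median -0.08 between mice). On simulated counts, edgeR recovered 38% of log2 changes of 1 and 84% of changes of 2 among 16362 genes with 8 false calls. DESeq2 recovered 55% and 91% with 53 false calls. The simulated counts used the library totals and gene means of this comparison but had no mouse effect, so they do not show the effect of pairing. The members and lists were chosen with earlier results of these data known. All members were described, with the called genes of each other list (at most 4) or its 2 most abundant, and the 5 genes nearest to H2-Ab1 and to B2m. Other uncalled genes of these lists were named after their values were seen, and marker lists are given by sums with single examples. Motifs were chosen with sequences in view. Mice were separate animals, and sequencing runs are not labeled per library.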

Additional observations from a re-analysis of the deposited data

Results flagged for a closer look

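In 98 groups of 5 values checked, 5 held a value that stood far from the other 4, where chance gives about 4.9. In each case the figure is the gap to the nearest value as a share of the group's range, both on the log2 scale, beside the levels in CPM. In Nrf2 eyes, mouse 2 stood apart for the summed rod markers (0.853, at 6974 CPM against 299 to 475 CPM). Mouse 4 stood apart for Igtp in Nrf2 eyes (0.772, at 383 CPM) and in the within-mouse difference (0.791, at 5.44 against 1.10 to 2.01 on the log2 scale). In control eyes, mouse 4 stood apart for Irf8 (0.74, at 7.41 CPM against 4.21 to 4.90 CPM) and mouse 1 for H2-T23 (0.717, at 48.1 CPM against 7.88 to 12.9 CPM). No value of the 10 members, and no class average, was among them.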

How the results depend on the processing

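The number of members called higher, 1 with the mouse as a block, was 0 without the block (the replicate block), 6 with DESeq2, 5 with no filter on low counts (706 of all 32000 genes then called higher), 2 after thinning to the smallest library (566 of 15565), 0 of 9 with the class I heavy chain family summed, and 0 to 1 without each mouse in turn. It was 1 with RLE size factors, a mean of at least 50 counts or rod markers as a covariate. No member was called lower in any of these. The number of all genes called, 1036, was 1812 with DESeq2 and 507 with the rod covariate, 755 without the block, and 584 to 857 without each mouse (584 without mouse 2, 613 without mouse 4, 683 without mouse 5), alternatives added after the data were seen. The calls among other pathway genes, 5 of 64, were 16 of 73 with DESeq2, 9 of 76 with no filter and 2 of 64 with the rod covariate. They were 3 to 5 without each mouse. Over all genes the calls were 1812 of 19592 with DESeq2, 1168 of 32000 with no filter and 507 of 16362 with the rod covariate. The block changed no other count by over 1.5 times. For H2-K1, the log2 fold change was 1.14 without the block (adjusted p = 0.061, edgeR), and it lay between 0.83 and 1.28 in 12 alternatives, 8 of them past the threshold. H2-Aa passed in 3 of 13, B2m, H2-Ab1 and Cd74 in 2 of 13 and H2-D1 in 1 of 12. Psmb9, at 0.20, reversed to -0.20 with the rod covariate and lay between -0.17 (without mouse 4) and 0.53 without each mouse. With that covariate Psmb8 went from 0.27 to 0.00, Tap1 from 0.40 to 0.07 and Tapbp from 0.37 to 0.19. The cause of these changes was not tested. The class II minus class I gap of 0.90 was 0.82 to 0.98 in the other fits and 0.40 to 1.18 without each mouse, lowest without mouse 5. The median SD of the members, 0.90, was 0.68 to 1.06 without each mouse. With the class I heavy chains summed over 8 genes, the log2 fold change was 0.85 (adjusted p = 0.0886, edgeR). Counting error covers only sequencing, as amplified reads are not independent molecules. In simulated counts, which had no mouse effect, many changes of 1 on the log2 scale were missed with 5 libraries per group.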
